A study of Mus musculus with 6 samples.

Results

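The liprin family of the mouse was followed here through RNA-seq of mouse embryonic fibroblasts (MEFs), primary cells grown from embryos. All 6 liprin genes, Ppfia1, Ppfia2, Ppfia3, Ppfia4, Ppfibp1 and Ppfibp2, were taken with every RefSeq transcript row they had, which made 42 rows of the 42361 in the table and 6 genes of 25043. The genes were chosen by family membership, and Ppfia2 was selected on its many rows and on earlier results of the same table, so its row number and low level are given as a description with no test. The study compared 3 libraries of WT MEFs with 3 libraries of MEFs carrying the Anp32e null genotype. Both groups were total RNA from cells below passage 8 with no treatment, and nothing in the labels said how many embryos or cultures lay behind the libraries. ANP32E is a histone chaperone that removes the histone variant H2A.Z from chromatin. The values used are means over all 6 libraries, so levels, transcript rows and counting error could be described, while a difference between WT and Anp32e-/- MEFs was not analysed here.

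Liprins are scaffold proteins with coiled coils in the amino-terminal part and SAM domains in the carboxy-terminal part. Alpha-liprins, encoded by the Ppfia genes, bind LAR-type receptor protein tyrosine phosphatases and, in neurons, organise the presynaptic active zone. Beta-liprins, encoded by the Ppfibp genes, pair with alpha-liprins through the SAM domains. In non-neuronal cells liprin-alpha1 and liprin-beta1 take part in the cortical platforms that surround focal adhesions, together with ELKS (Erc1), LL5 proteins (Phldb1 and Phldb2), KANK proteins and KIF21A.

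A pair of liprins carried most of the family's reads in these fibroblasts. Ppfibp1 (liprin-beta1) had the highest mean, 9795 normalized counts per library, and lay at 6:146886609-147032025 on the plus strand of GRCm38. Ppfia1 (liprin-alpha1, 7:144476755-144553762, minus strand) followed with a mean of 4388. Their means added up to 96.5% of the family's sum, or 95.8% when each mean was first divided by exonic length. On the per-length scale the level of Ppfibp1 was 2.25 times that of Ppfia1, at 2045 against 909 normalized counts per kb. Among all 19275 genes with reads, the mean of Ppfibp1 stood at percentile 95.2 and that of Ppfia1 at percentile 87.3. In bulk RNA, fewer cells that express a gene and less RNA per cell cannot be told apart.

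The middle of the order was held by Ppfia3 and Ppfibp2. Ppfia3 (liprin-alpha3, an alpha-liprin known from brain synapses, 7:45339126-45367019, minus strand) had a mean of 246 normalized counts. Ppfibp2 (liprin-beta2, 7:107595047-107748583, plus strand) had a mean of 240 on its highest row. Counting error alone reached up to 2.73% of the mean for Ppfia3 and 2.76% for Ppfibp2, so the order of these neighbours was not resolved on the scale of means. Per kb the order depended on the Ppfibp2 row: its row NM_008905 stood at 71.4 and its longer row NM_001163557 at 52.2, against 52.8 normalized counts per kb for Ppfia3. The spread between libraries was not available for either gene.

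Ppfia4 and Ppfia2 were the lowest members. Ppfia4 (liprin-alpha4, 1:134296783-134344756, minus strand) had a mean of 25.1 normalized counts, or 4.13 per kb. Ppfia2 (liprin-alpha2, a presynaptic alpha-liprin of neurons, 10:106469500-106933468, plus strand) had a mean of 6.57 on its highest rows. Its per-length level was 0.873 per kb on NM_177373 and 0.533 per kb on NM_001205341, the lower-mean rows whose lengths (5429 and 8885 bases) the annotation gave. Per kb on the shorter row, Ppfia1 was 1041 times, Ppfibp1 2342 times and Ppfia4 4.73 times the level of Ppfia2. On the longer row these ratios were 1703, 3833 and 7.74. The annotated transcript used for NM_001205341 ends at 10:106935952, past the RefSeq end of the gene at 106933468. The 8885 bases may therefore exceed the counted row, so 0.533 and the ratios on the longer row are uncertain. All 6 genes had reads, 5 reached a mean of 10 and 4 reached 100. Over all genes of the table, 56.9% reached 10 and 46.0% reached 100.

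**Figure D1:**
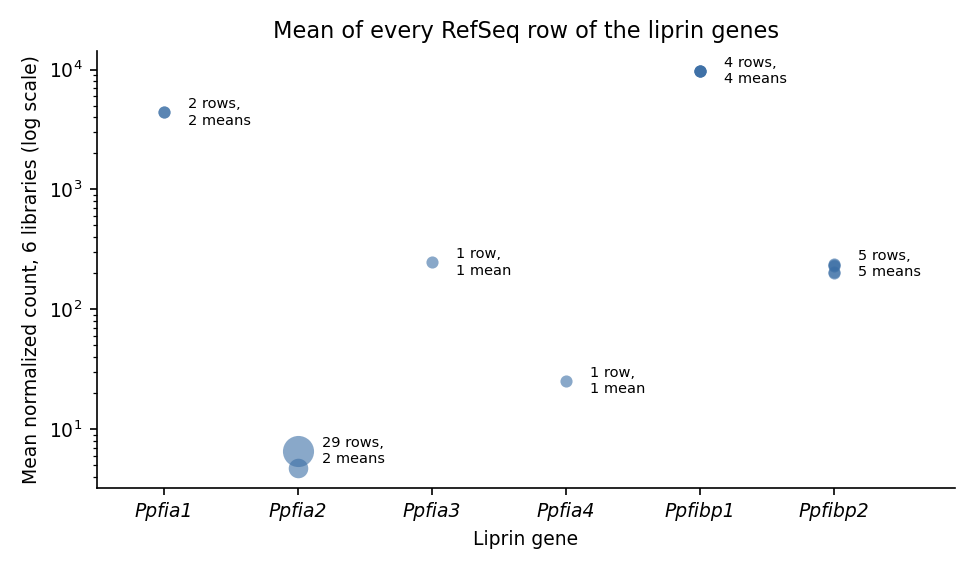
The vertical axis, on a log scale, is the mean normalized count over 6 libraries, and each point is a distinct mean among the RefSeq rows of the liprin gene on the horizontal axis, with an area that grows with the number of rows that share it. Ppfibp1 stands at 9795 and Ppfia2 at 6.57 and 4.74, and the 29 rows of Ppfia2 lie on 2 means.

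Ppfia2 filled 29 of the 42 liprin rows (69.0%), although it was the lowest gene of the family. The rows held only 2 means: 22 rows stood at 6.57 and 7 rows at 4.74. Rows with an equal mean to this precision were counted as holding the same reads, with equality taken within 1e-09. Added together, the 29 means came to 178, which is 27.0 times the mean of the highest row, so the rows of the gene cannot be summed to a gene level. In the table, 4 genes had more rows than Ppfia2: Celf4 with 66 rows on 12 means, Arpp21 with 51 rows and Mlip with 36 rows, both at a mean of 0, and Trpm3 with 30 rows on 6 means. Of 98 genes with reads and at least 10 rows, the median held 8 distinct means and 7 held 2 or fewer.

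**Figure D2:**
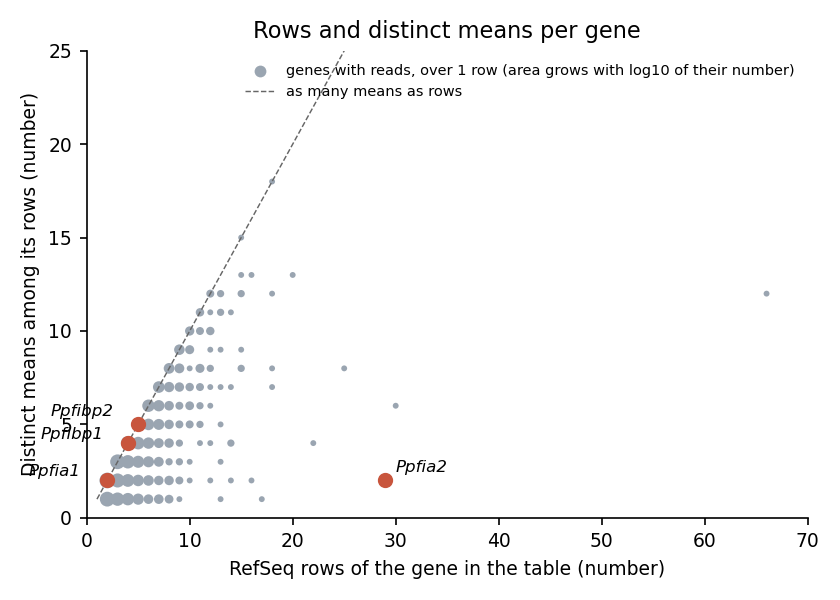
The horizontal axis counts the RefSeq rows of a gene and the vertical axis the distinct means among them, for genes with reads and more than 1 row. The red points are liprins: Ppfia1, Ppfibp1 and Ppfibp2 lie on the dashed line of as many means as rows, and Ppfia2 lies at 29 rows and 2 means.

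The other liprins had few rows. Ppfibp2 had 5 rows on 5 means from 240 down to 200, a spread of 16.8% of the highest. Ppfibp1 had 4 rows on 4 means, spread over 0.178% of the highest, and Ppfia1 had 2 rows, spread over 0.0608%. Ppfia3 and Ppfia4 had 1 row each. Sharing of a mean by rows was common, since 1501 of 7527 genes with reads and more than 1 row (19.9%) had a single distinct mean. Across the table, where all exonic bases of a transcript lay inside another transcript of its gene, the larger had at least the mean of the smaller in 3290 of 3448 pairs (95.4%), of which 991 were equal. Where the splice junctions of the smaller also had to be in the larger, this held in 45 of 58 pairs (77.6%). No liprin pair was of this kind.

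Alternative coding exons separated some of these rows, and the following sequences show what the row differences can rest on. They are from GENCODE M21 transcripts on GRCm38, written 5′ to 3′ on the strand of the gene, with the alternative bases in capitals and 12 flanking exonic bases in lower case. Exon 9 of 31 in Ppfia1 has 75 bases (25 codons) at 7:144514872-144514946 and is in NM_001195086 but not in NM_001033319. Exon 10 of 28 in Ppfibp1 has 33 bases (11 codons) at 6:146999662-146999694 and is in NM_001170433 but not in NM_026221. In Ppfibp2, exon 16 of 25 in NM_008905 has 33 bases at 7:107728716-107728748 and is missing from NM_001163557, which has a coding exon 25 of 26 with 66 bases (22 codons) at 7:107746371-107746436. In Ppfia2, NM_001205341 has 1 more codon in exon 20 than NM_177373, at 10:106865247-106865249.
Ppfia1 exon 9: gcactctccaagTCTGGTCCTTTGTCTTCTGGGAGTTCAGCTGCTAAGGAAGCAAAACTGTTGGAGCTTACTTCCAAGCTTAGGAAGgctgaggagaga
Ppfibp1 exon 10: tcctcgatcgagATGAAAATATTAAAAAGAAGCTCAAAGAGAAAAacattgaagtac
Ppfibp2 exon 16: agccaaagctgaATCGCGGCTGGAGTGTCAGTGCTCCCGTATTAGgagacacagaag
Ppfibp2 exon 25: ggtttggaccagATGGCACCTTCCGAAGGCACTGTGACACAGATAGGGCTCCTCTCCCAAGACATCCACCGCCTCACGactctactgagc
Ppfia2 exon 20: tgatgcccggagCAGtttatctgcctc

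The rows with and without these exons had close means in Ppfia1, Ppfibp1 and Ppfia2, while those of Ppfibp2 lay further apart. The Ppfia1 row with exon 9 had a mean 2.67 normalized counts higher than the row without it, on a level of 4388. The Ppfibp1 row with exon 10 was 0.99 higher, on a level of 9778. The Ppfia2 rows with and without the extra codon had the same mean of 4.74. In Ppfibp2 the row with exon 16 had a mean of 236 and the row with exon 25 a mean of 200, which is 36.35 lower. The transcripts also differ in untranslated exons and, where a read is counted on every row it overlaps, any read that touches a shared exon falls on both rows. A difference between rows is then a net number of reads on the parts they do not share, and gives no share of the exon's use.

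Reads behind the lowest means could be recovered as whole numbers. The mean of a row is a sum over 6 libraries of reads times what 1 read is worth in that library, and the 6 lowest means of the table gave those worths. They correspond to size factors of 1.131, 1.052, 1.027, 0.987, 0.936 and 0.909, for libraries named A to F here in that order. Every one of the 3623 distinct means above 0 and up to 10 in the table had exactly 1 whole-read solution. The means alone do not tie these 6 libraries to WT or Anp32e null, and the authors' comparison of the groups was not used. Each value therefore stands alone and no group is formed from these libraries.

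The higher mean of Ppfia2 rested on 42 reads in all. Library A held 15 reads, B held 19, C held 0, D held 8, E held 0 and F held 0. Libraries A, B and D thus had all of the reads of the gene. The exact Poisson 95% interval of the 42 reads was 30.3 to 56.8, and library B held 45.2% of them, with an exact Clopper-Pearson 95% interval of 29.8 to 61.3%. On the normalized scale the libraries with reads stood at 13.3, 18.1 and 8.10 counts. A count of 0 in C, E and F allows up to 2.92, 3.21 and 3.30 normalized counts, the worth of 3 reads in each. These intervals and limits cover counting error only. Without library B the higher mean was 4.27 over the other 5 libraries.

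The lower mean of Ppfia2, on the 7 rows at 4.74, rested on 30 reads. Library A held 6 reads, B held 19, D held 5, and C, E and F held 0. The rows at the higher mean therefore carried a net 12 further reads (28.6% of 42), 9 in library A and 3 in library D. Library B had 19 reads on both sets of rows, a net difference of 0, and without it the lower mean was 2.07. Whether these were the same 19 reads was not known. The structures of 27 of the 29 Ppfia2 rows were not used here, and the exons behind the net 12 reads were not located.

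Ppfia4 had 148 reads and reads in every library. Library A held 25 reads, B held 15, C held 26, D held 4, E held 37 and F held 41. Library F was highest and D lowest, and the median over the libraries was 25.5 reads. The normalized counts were 22.1, 14.3, 25.3, 4.05, 39.5 and 45.1 in the same order. The exact Poisson 95% interval of the total was 125.1 to 173.9 reads. This interval covers counting error only, and not the spread between libraries.

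**Figure D3:**
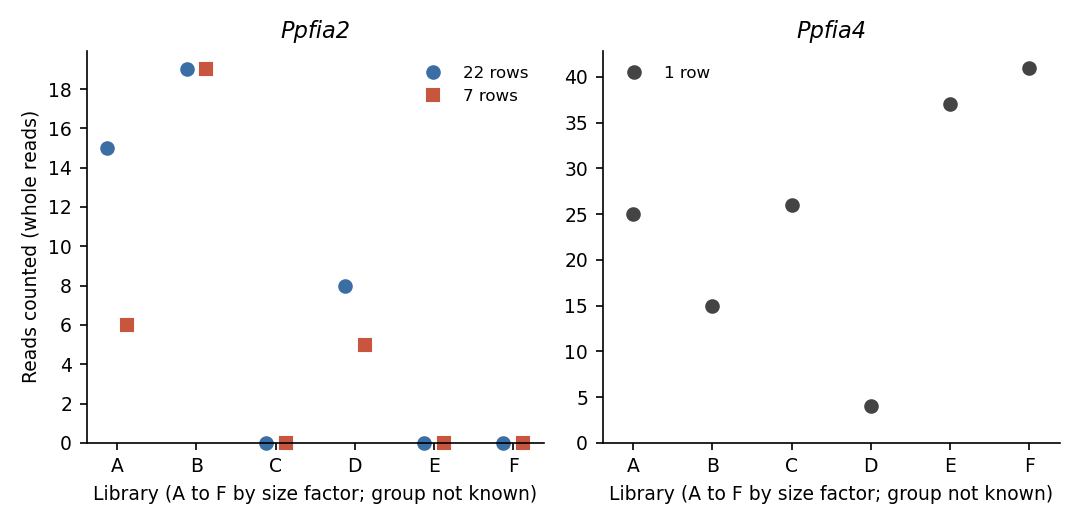
The vertical axes give whole reads recovered from the means and the horizontal axes the 6 libraries A to F in order of size factor, whose group is not known. Ppfia2 had reads in A, B and D only, at 15, 19 and 8 on its 22 higher rows and 6, 19 and 5 on its 7 lower rows, and Ppfia4 ranged from 4 reads in D to 41 in F.

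The same recovery was applied to differences between rows of the higher liprins. The Ppfia1 row with exon 9 had a net 17 reads more than the other row, of which library A held 9, B held 1, C held 4, D held 1, E held 0 and F held 2. This match rested on the tolerance, as a tolerance 0.2 times as wide gave no match. The Ppfibp1 row with exon 10 had a net 6 reads more, 3 in library C and 3 in library D. A further Ppfibp1 row, NM_001355729, had a net 63 reads more than NM_001170433, with 19, 12, 7, 11, 6 and 8 in libraries A to F. The net number was above 0 in all 6 libraries, and library A had the highest, 30.2% of the 63.

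The rows of Ppfibp2 formed a regular pattern. NM_001357436 exceeded NM_008905, and NM_001357437 exceeded NM_001163557, by the same 23 reads: 1, 0, 3, 4, 6 and 9 in libraries A to F. It follows from this equality that NM_001357436 exceeded NM_001357437 by as many reads as NM_008905 exceeded NM_001163557. That number was 215 reads: 21, 23, 57, 22, 42 and 50. Those 4 rows thus differed by the same net numbers, 23 and 215 reads. NM_008905 and NM_001163557 each have exonic parts that the other lacks, so 215 is not the reads of a single part. Of the net 215 reads, library C had 26.5%, the highest share, with F close to it, and library A had the fewest. A count of 0.066 whole-read matches would arise by accident at a difference of that size, the largest such number among the unique matches. The fifth row, NM_001357438, lay 62 reads below the highest, with 4, 0, 17, 8, 11 and 22 in libraries A to F, and this match was lost at 0.2 times the tolerance.

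Genes on the opposite strand overlap exons of 4 liprins. Acss3 shares 2436 exonic bases with Ppfia2, and its rows had means of 1.07 and 0.44. The overlaps are of GENCODE exons, and those of Ppfia2 run past its RefSeq end, so the counted rows may share fewer bases. The higher Acss3 mean rested on 7 reads, 4 in library A and 3 in library B. The kit marks strand. The study's methods give default settings for featureCounts, whose default does not use strand. The strand setting itself was not stated, and whether every default was kept is not known. It is therefore not known whether reads of the overlapping parts were counted on both genes. The part of shared reads in the low Ppfia2 level was not tested. Mtag2 shares 112 bases with Ppfia3 at means of 20.09 and 19.60, and Cyb5r2 shares 129 bases with Ppfibp2 at 0.97. C230021G24Rik, which shares 234 bases with Ppfia2, and Gm44085, which shares 114 bases with Ppfibp1, had no row.

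Genes of the cortical platforms all had reads. All 14 of the listed cortical partners had means of at least 100, with a median of 3422 against 350 over all genes with reads. Over all genes of the table, 46.0% reached 100. Tln1 (talin, the integrin activator) stood at 5134 normalized counts per kb, Phldb2 and Phldb1 (LL5 proteins) at 2931 and 1640, and Kank2 (a talin-binding KANK protein) at 1227. The lowest were Kif21a, a kinesin that restrains microtubule growth at the cortex, and Kank4, each at 34.8 per kb. Ppfibp1 and Ppfia1 lay inside this range, at 2045 and 909 per kb. All 3 LAR-type phosphatases, the receptors that alpha-liprins bind, had means of at least 100: Ptprs stood at 1213, Ptprf at 369 and Ptprd at 105 normalized counts per kb.

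Presynaptic active zone partners were more mixed. Of 24 listed genes, 22 had reads, 18 reached a mean of 10 and 12 reached 100, with a median of 95.3. These were 75.0% and 50.0%, against 56.9% and 46.0% over all genes of the table, whose median was 43.4. Both medians include genes without reads. The highest were Syde1 at 2394, Lin7c (a PDZ scaffold) at 920, Cask (its membrane-associated guanylate kinase partner) at 293 and Syde2 at 301 normalized counts per kb. Rims4 and Rimbp2, which belong to the RIM and RIM-binding protein families of the active zone, were at a mean of 0. Per kb, Ppfia3 lay at 52.8 and Ppfia2 at 0.873, below the 145 that was the median of 18732 genes with reads and a length.

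**Figure D4:**
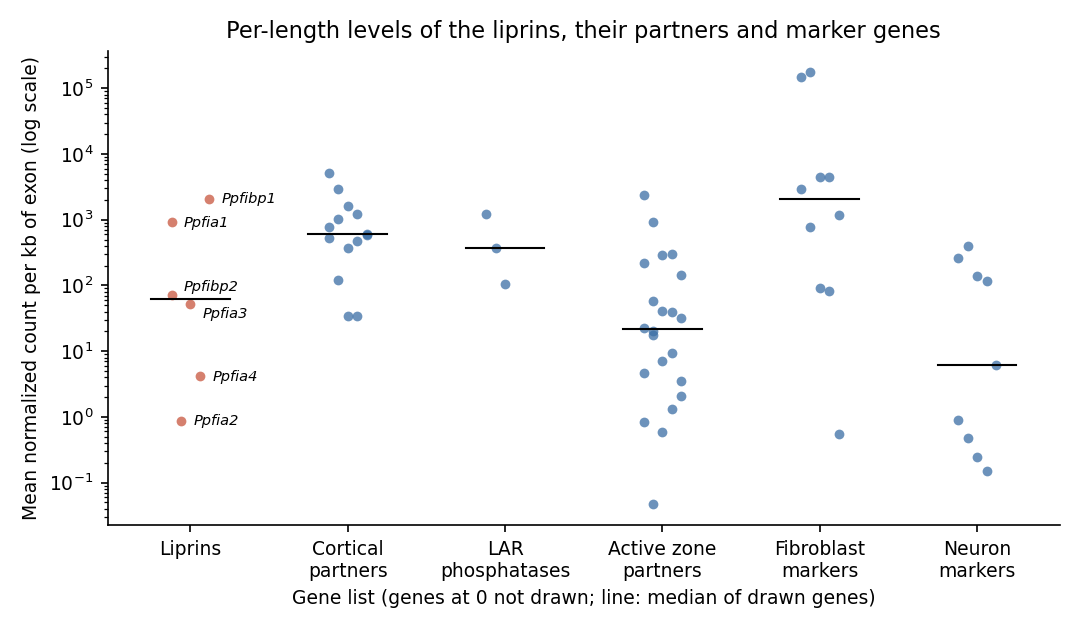
The vertical axis, on a log scale, is the mean normalized count per kb of exon, with 1 point per gene and a line at the median of the genes drawn. Liprins range from 0.873 per kb for Ppfia2 to 2045 for Ppfibp1, cortical partners from 34.8 to 5134, and active zone genes at a mean of 0 are not drawn.

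Marker genes were looked at to check the labelled cell type. Of 10 fibroblast markers, 9 had means of at least 100, including Vim at 330695 and Col1a1 at 26142, while Lum stood at 1.33. Of 10 neuron markers, 4 reached 100 (Map2, Tubb3, Stmn2 and Gap43), Syt1 was at 4.26 and Snap25 was at 0. A mean of 100 was reached by 46.0% of all genes in the table, so the neuron markers were near that share. That mean was reached by 1 of 7 skeletal muscle markers (Acta1, 4711), 1 of 5 endothelial (Kdr, 2958) and 1 of 4 macrophage (Cd68, 257). Of 6 mesothelial and epithelial markers, 3 reached 100 (Krt19 at 7400, Upk3b at 605 and Msln at 381), also near that share. The part of such cells in the liprin levels was not tested. Anp32e itself had 3 rows with means of 2016 to 2190, and a mean pooled over both groups cannot check the genotype labels.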

How the data were processed

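RNA-seq libraries (3 of WT and 3 of Anp32e null MEFs) were made with a stranded total RNA kit. The authors aligned reads to mm10 with STAR, and the submitters' processing notes also name Subread, featureCounts, DESeq2 and deepTools. The methods give default settings for featureCounts. How reads that overlap several transcripts were counted is not stated further. Reads appear to have been counted on several rows, as 22 Ppfia2 rows shared a mean of 6.57. The Ppfia1 rows, at 4388 and 4385, also lay close. The deposited signal used is the mean DESeq2-normalized count of each RefSeq transcript over all 6 libraries, as the authors' mean. The other 5 value columns hold the authors' comparison of the groups (fold change, its error, statistic and p-values) and were not used, so no test was made.

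Row identifiers were matched to genes with RefSeq, and 158 rows had no gene. Lengths and exons came from GENCODE M21, which had 10 of the 42 liprin rows. A gene's level was its highest row. Per-kb values divide the mean of a row that had a GENCODE length by that length, taking the row with the highest mean, with ties broken by accession (NM_177373 for Ppfia2). Whole reads were solved from means up to 40 with a tolerance of 1e-13 plus 5e-15 of the mean, set after seeing the data. For a difference between rows, the mean of the higher row set the tolerance. The test on simulated data covered single low means only. It covered neither a mean as high as that of Ppfia4 nor any difference between rows. Total depth per library was not available. In partner lists, up to 4 genes with the highest and 2 with the lowest means were named. The members and lists were chosen with earlier results of these data known. Python 3.11.15, numpy 2.4.6, scipy 1.17.1 and matplotlib 3.10.9 were used.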

Additional observations from a re-analysis of the deposited data

How the results depend on the processing

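Of 66 values under other row, length, gene-set and equality choices, 45 moved by less than the criterion, which was the 95% counting error for levels and percentiles and 1.5 times for numbers of rows and means and for the share of nested pairs. Many of the 45 could not have moved. Ppfia3 and Ppfia4 had 1 row each, and every liprin row was a coding row with reads. The 45 are therefore no measure of how firm the results are. The order by mean was the same in all 4 choices of the row that stands for a gene. For Ppfibp2 the level was 222 as a mean of its distinct means and 200 on its longest row. On coding length the levels per kb were 3326 for Ppfibp1, 1155 for Ppfia1, 89.3 for Ppfibp2, 68.6 for Ppfia3, 7.04 for Ppfia4 and 1.26 for Ppfia2, in the same order as on exonic length. On the longest row with a length, an alternative chosen after seeing the data, they were 2016 for Ppfibp1, 846 for Ppfia1, 0.533 for Ppfia2 and 52.2 for Ppfibp2, which then stood below Ppfia3. Among genes with a mean of at least 10 the percentiles were 93.5 for Ppfibp1, 82.8 for Ppfia1, 27.8 for Ppfia3, 27.6 for Ppfibp2 and 7.8 for Ppfia4, and Ppfia2 was not in that set. Among every gene of the table they were 96.3, 90.2, 58.9, 58.8 and 47.6 in that order, and 41.1 for Ppfia2. These shifts follow from the length and the set of genes used. The length behind 0.533 for Ppfia2 runs past the RefSeq end of the gene, so that value is uncertain. With means under 1% apart taken as equal, Ppfia1 and Ppfibp1 had 1 distinct mean each. The tolerance of the whole-read match was also varied, a choice made after seeing the data: 10 times as wide kept every unique match, and 0.2 times as wide left 0 for the Ppfia1 difference and 0 for the fifth Ppfibp2 row. For the difference of NM_001355728 and NM_001170433 of Ppfibp1, the number of matches was 2, with 3 at the wider and 1 at the narrower tolerance, so its reads are not given. Leaving out each library in turn, also added after seeing the data, was possible where reads were recovered: the mean ranged from 4.27 to 7.89 for Ppfia2, from 2.07 to 5.69 for its lower mean and from 21.1 to 29.3 for Ppfia4. Without library B the Ppfia2 means were 4.27 and 2.07. No paired analysis was possible because nothing ties these libraries to the labelled replicates. Matching by transcript version was not run, as the table gives none. With 42 reads, depth limits what can be said of Ppfia2.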

Other observations

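The reads of Ppfia2 fell into separate sets of libraries: A, B and D held 15, 19 and 8 reads, and C, E and F held 0. The labels do not tie these libraries to a group. Of 593 genes with a highest mean between 5 and 8, 425 (71.7%) had reads in every library, 155 had 1 or 2 libraries at 0 and 13 (2.19%) had at least 3 at 0. Of the 12 with exactly 3 libraries at 0, 4 genes (Ppfia2 among them) were at 0 in C, E and F, and the other 8 were at 0 in A, B and D. No test was made on this pattern, which was noticed in these values.

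Low genes of the partner and marker lists had other patterns over libraries A to F. Syt1, a synaptic vesicle calcium sensor, had 10, 9, 1, 5, 2 and 0 reads. Lin7a, a PDZ scaffold, had reads in A and D only, at 3 and 6. Grip1, an adaptor that binds alpha-liprins, had 0, 6, 6, 2, 5 and 8 reads, with library A alone at 0. Rims3, of the RIM family, had 6, 3, 3, 4, 0 and 5 reads, and Elavl3, a neuronal RNA-binding protein, had 4, 3, 3, 3, 0 and 2.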
